A study of Mus musculus with 2 samples.

Results

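The genes described here are 40 markers of peripheral neurons, from the neuronal cytoskeleton to the enzymes and transporters of catecholamine and acetylcholine transmission. They were measured in ureters that had been dissected from E14.5 mice (the number is the day of embryonic development) on 2 two-colour Agilent arrays. Each array set RNA of the mutants, called Smad4cKO, with the genotype Tbx18(cre/+);Smad4(fl/fl), against RNA of controls with the genotype Tbx18(+/+);Smad4(fl/+). All embryos were of the NMRI strain. Array 1 compared a female Smad4cKO RNA in green (AlexaFluor555) with a female control RNA in red (AlexaFluor647). Array 2 compared a male Smad4cKO RNA in red with a male control RNA in green. Sex and dye orientation thus differ together between the arrays and cannot be told apart. The controls carry 1 floxed Smad4 allele, and the mutants carry 1 Tbx18 allele with Cre that the controls lack, so its effect cannot be told apart from that of Smad4 loss. Cre made from the Tbx18 locus acts in the mesenchyme around the ureteric epithelium and is not a neuronal driver. The labels give neither the number of embryos behind an RNA nor their litters. The arrays hold RNA of different sexes, so the spread between them is not technical error alone. Differences of RNA, sex and dye are mixed in it and cannot be told apart. The members were taken by name: 39 of the 40 genes had a probe under their own symbol, with 52 of 39429 probes and 88 of 43020 spots that were not controls. In all, 31870 genes or unnamed transcripts had a probe, and 21238 of them, 37 members included, were bright enough to test.

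Neurons of the autonomic ganglia arise from neural crest cells. The transcription factors Phox2a, Hand2, Isl1 and Insm1 act early in these cells and switch on the machinery of neurotransmission. Noradrenergic neurons convert tyrosine to DOPA with tyrosine hydroxylase, to dopamine with DOPA decarboxylase and to noradrenaline with dopamine beta-hydroxylase, while cholinergic neurons make acetylcholine with choline acetyltransferase. As axons grow, neurofilaments and microtubules fill them, and neurotrophin receptors on their surface bind survival factors from the target tissue. Ganglia and nerve fibres lie on and beside the ureter.

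Ratios are the channel labelled Smad4cKO over the channel labelled control, by the dye labels, and "Smad4cKO" and "control" below mean those channels. The authors' deposited table runs the other way, control over Smad4cKO by the same labels, although its titles put Smad4cKO first. A reader who follows the titles would turn every sign given here. Smad4 itself had normalized intensities of 21018 and 27556 in Smad4cKO on arrays 1 and 2, against 33992 and 30350 in control, with log2 ratios of -0.69 and -0.14. A second Smad4 probe gave -0.31 and -0.49, and the labels do not say whether either probe lies in the deleted part, without which they check nothing. Tbx18 gave 0.07 and 0.81. Between 68.3% and 70.3% of spots were well above background in the 4 channels, and 0 spots were saturated. Markers of the tissue were present: the 8 smooth muscle, 9 urothelial and 7 ureteric mesenchyme markers examined all had a tested probe.

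Most of these neuron genes gave lower values in Smad4cKO than in control. Of the 37 tested members, 32 were lower on both arrays, against 19.8% of all tested genes. A single member, the granin gene Chgb, was higher on both arrays, against 19.9% of all tested genes. Opposite signs were seen in 4 members (Stmn2, Elavl2, Insm1 and Chrnb4), against 60.3% of all tested genes. By group median the cytoskeletal genes stood lowest, although Gap43, Crmp1, Nefh and Stmn2 among them had small ratios, and the lowest single gene was Cartpt. Peripherin and the smaller neurofilament subunits were near 1.8-fold lower, while the catecholamine enzymes Th and Ddc and the granins Chga and Chgb stayed close to equal. By the 1.5-fold rule, which a gene passes when each of the 2 arrays gives 1.5-fold or more with the same sign, 9 members were lower, or 24.3%, against a background of 0.523% of all tested genes. These were Stmn4, Prph, Nefm, Nefl, Stmn3, Dcx, Hand2, Cartpt and Ntrk3. By the same rule 0 members were higher, where the background was 0.49%. In bulk tissue, fewer cells of a type and less RNA per cell cannot be told apart.

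The test across all genes, limma with Benjamini-Hochberg adjustment, called 0 members at an adjusted p under 0.05, with 1 residual degree of freedom per gene, where the background was 1 gene or 0.00471%. The lowest adjusted p among members was 0.104, for Cartpt. At an unadjusted p under 0.05, limma gave 22 members lower and 0 higher, and over all tested genes 630 lower and 455 higher. Limma's result depended on the processing: 12 members passed as lower with the scanner software's processed signals, where 160 of all genes did, and 22 with an intensity trend and robust variance together, where 407 did. The median log2 ratio of the 37 members was -0.52, with -0.74 on array 1 and -0.30 on array 2, where the median of all tested genes was 0.0047. By role, the medians were -0.75 for 12 cytoskeletal genes, -0.55 for 5 RNA-binding and other neuronal proteins, -0.54 for 4 transcription factors, -0.31 for 4 catecholamine genes, -0.61 for 3 acetylcholine genes (-0.49 for the 2 other than Slc5a7), -0.27 for 6 granins and peptides and -0.28 for 3 receptors. A probe was tested where 1 group, the same on each array, gave a signal well above background. Slc5a7 alone passed through its control channels only, and without it 31 of 36 members were lower on both arrays and their median was -0.50. The members counted at an unadjusted p under 0.05, with processed signals and with the intensity trend all include Slc5a7.

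**Figure D1:**
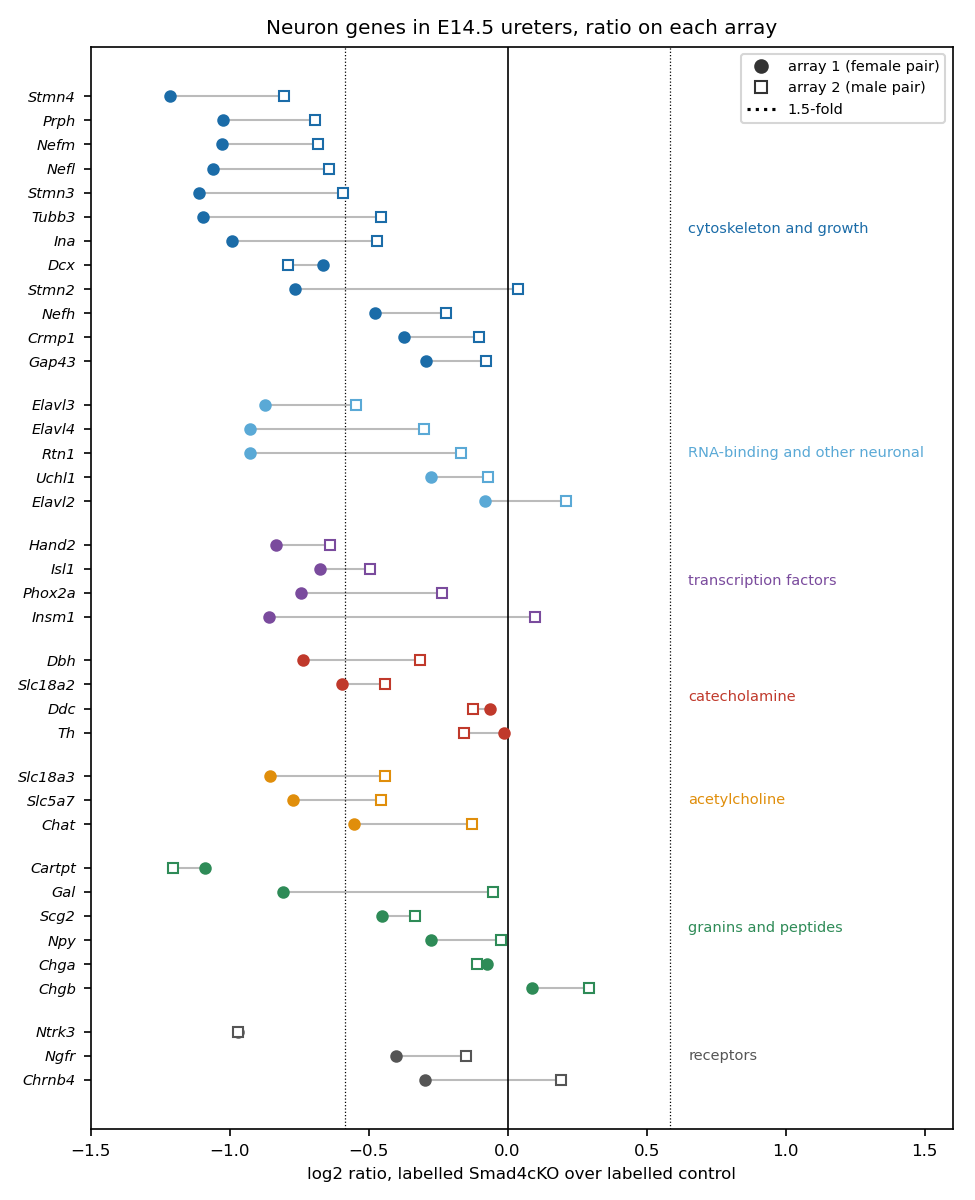
Log2 ratio of Smad4cKO over control for the 37 tested neuron genes, grouped by role, with a filled circle for array 1 (female pair) and an open square for array 2 (male pair). Dotted lines mark 1.5-fold, and 9 genes lie beyond the left line on both arrays.

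Peripherin and the neurofilament proteins are the intermediate filaments that set the calibre of axons. Prph, the intermediate filament gene typical of peripheral neurons, gave 1175 and 1021 in Smad4cKO on arrays 1 and 2, against 2391 and 1650 in control (normalized intensity, arbitrary units, which cannot be set against those of another gene). Its highest Smad4cKO value thus lay below its lowest control value. The log2 ratio of Prph was -0.86 ± 0.15 (limma's moderated SE, n = 2 arrays, adjusted p = 0.191), or 1.81-fold lower. Nefm, the medium neurofilament subunit, gave 1451 and 1423 in Smad4cKO, against 2956 and 2284 in control, and -0.85 ± 0.15 (adjusted p = 0.199). Nefl, the light subunit, gave 1889 and 1974 in Smad4cKO, against 3935 and 3085 in control, and -0.85 ± 0.16 (adjusted p = 0.222). Neither gene's groups overlapped, and in both the control RNA was brighter on array 1 than on array 2. The Nefl and Nefm probes start 32555 bases apart on chromosome 14 (mm9). Ina, which encodes the filament protein alpha-internexin, gave 1114 and 1146 in Smad4cKO, against 2212 and 1588 in control. Its groups did not overlap, but a dimmer second probe of Ina had a mean log2 ratio of -0.32 where the brighter gave -0.73. Nefh, the heavy subunit that joins axons late in their growth, was dim, with 149 and 156 in Smad4cKO and 208 and 181 in control, and its log2 ratio of -0.35 became -0.74 with processed signals.

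The Nefm probe is shown because it was spotted 10 times on each array, so that the spot-to-spot error of the measurement can be seen. It lies at chr14:68738193-68738252 (mm9), and the strand of the coordinates is not stated.
Nefm probe: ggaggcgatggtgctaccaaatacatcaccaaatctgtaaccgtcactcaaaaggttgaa
Its spots gave a mean log2 ratio of -1.03 with an SD of 0.046 over 10 spots on array 1, and -0.68 with an SD of 0.038 over 9 spots on array 2, where 1 spot was an outlier. The lowest and highest spots were -1.09 and -0.97 on array 1 and -0.73 and -0.61 on array 2, so the spots of the arrays did not overlap. The same held for the other members spotted 10 times. Isl1 gave -0.67 (SD 0.064) and -0.50 (SD 0.056), Ngfr -0.40 (SD 0.038) and -0.15 (SD 0.062), and Chgb 0.09 (SD 0.038) and 0.29 (SD 0.049). For Chgb every spot was above 0, the lowest of 20 at 0.01.

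**Figure D2:**
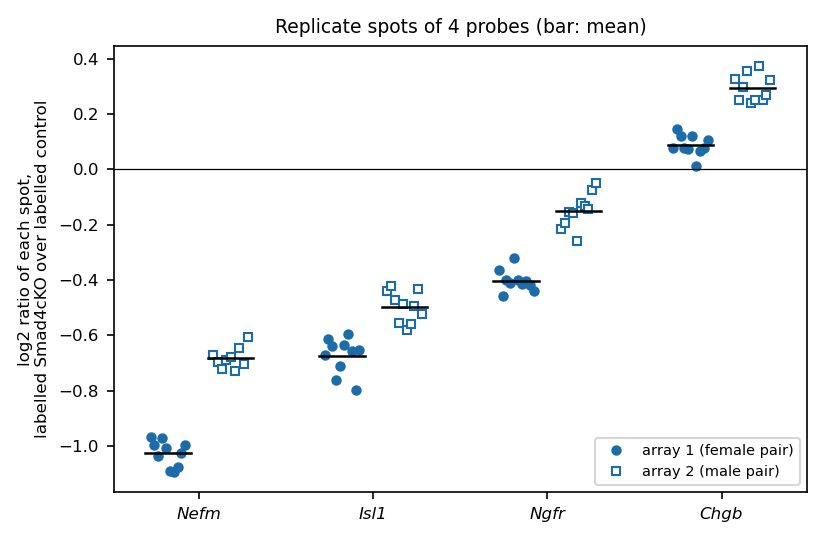
Log2 ratio of Smad4cKO over control at each spot of the 4 neuron gene probes that were printed 10 times per array, with filled circles for array 1, open squares for array 2 and a bar at the mean. Nefm, Isl1 and Ngfr spots lie below 0 and Chgb spots above it on both arrays, and the spots of the 2 arrays do not overlap for any of the 4 genes.

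The stathmins bind tubulin and tune the growth of microtubules in axons. Stmn4 gave 853 and 869 in Smad4cKO, against 1980 and 1515 in control, the lowest ratio of the cytoskeletal members at -1.01 ± 0.16 (log2, SE, n = 2, limma adjusted p = 0.163) or 2.01-fold lower. A second Stmn4 probe gave -0.95. Stmn3 gave 883 and 864 in Smad4cKO, against 1905 and 1303 in control, or 1.80-fold lower (limma adjusted p = 0.267). In both genes the 4 values fell into groups that did not overlap. Stmn2, the stathmin that supports regrowth of axons, did not share this: it gave 1495 and 2225 in Smad4cKO, against 2542 and 2170 in control. Its log2 ratio was -0.77 on array 1 and 0.04 on array 2, with overlapping groups.

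Among the other microtubule and growth cone genes, Tubb3, the neuronal beta-tubulin, gave 503 and 474 in Smad4cKO, against 1074 and 650 in control. It was lower on both arrays without overlap, at -1.10 and -0.46, and the second value kept it from the 1.5-fold rule. Dcx encodes doublecortin, which stabilises microtubules in young migrating neurons. It gave 523 and 535 in Smad4cKO, against 830 and 924 in control, and was among the few members with the larger ratio on array 2 (-0.66 and -0.79). The other Dcx probes (2 of them) were not well above background in any channel. Crmp1, which relays semaphorin signals to the cytoskeleton, gave -0.37 and -0.10, and Gap43, a membrane protein of growth cones, gave -0.29 and -0.08. Crmp1 had 1469 and 1281 in Smad4cKO and 1905 and 1376 in control, and Gap43 had 7759 and 7109 in Smad4cKO and 9519 and 7503 in control. In each of these genes the groups overlapped, and the mean log2 ratios of -0.24 (Crmp1) and -0.19 (Gap43) compare with a limma SE of 0.14. Map2, a microtubule-associated protein of dendrites, had no probe under that name. The files call it Mtap2, and its brighter probe, kept out of all counts, gave 2813 and 3003 in Smad4cKO, against 2554 and 2486 in control, or 0.14 and 0.27. Of the 12 tested cytoskeletal members, 6 passed the 1.5-fold rule.

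**Figure D3:**
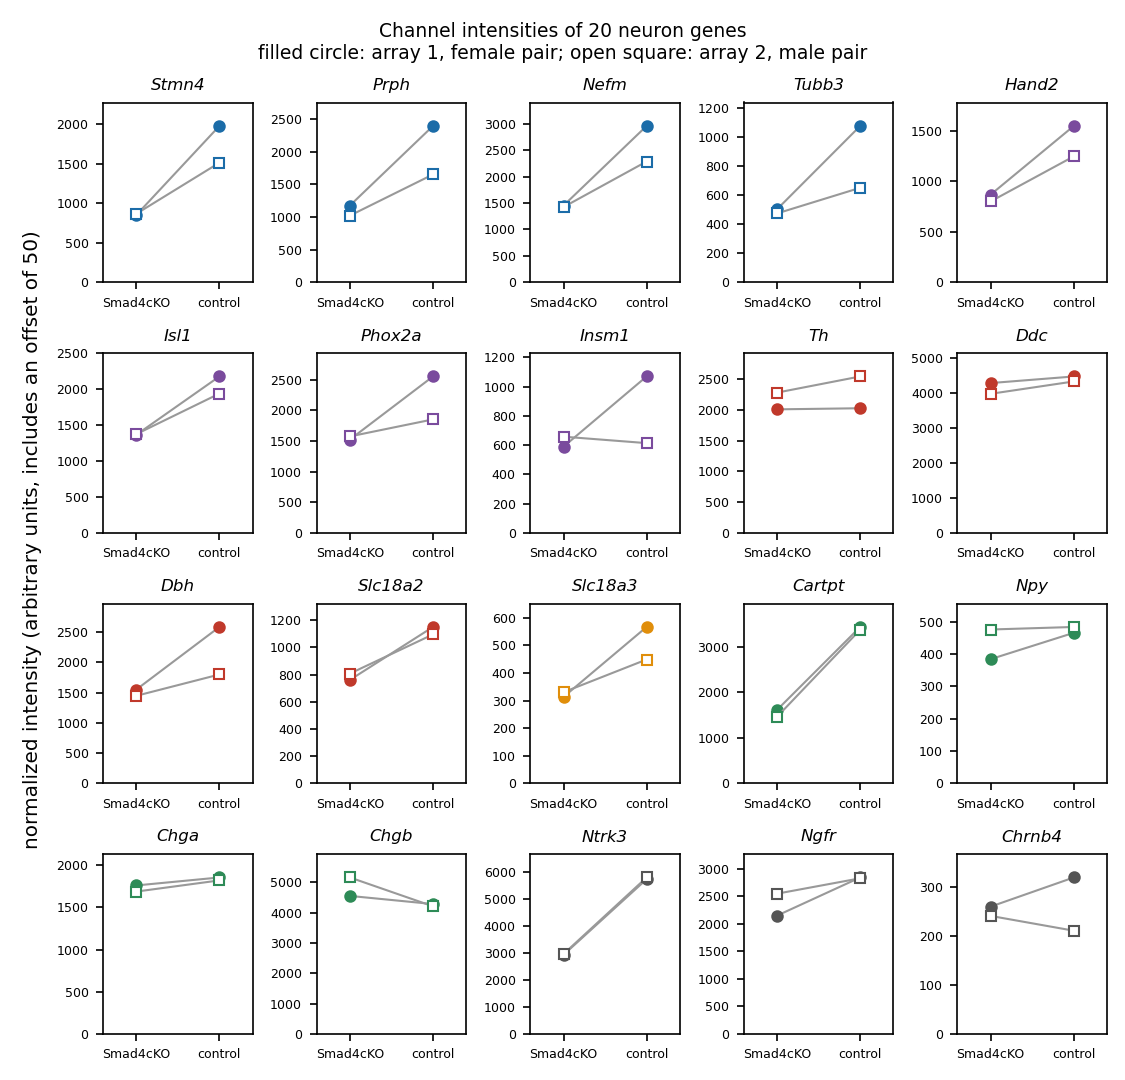
Normalized intensity of 20 neuron genes in Smad4cKO (left) and control (right) of each panel, joined within an array, with filled circles for array 1 and open squares for array 2. Each panel has its own axis from 0. Lines rise to the right on both arrays for Stmn4, Prph, Nefm, Tubb3, Hand2, Isl1, Cartpt and Ntrk3, are nearly level for Ddc and Chga, and fall for Chgb.

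The neuronal RNA-binding proteins of the Elavl family keep messages for neuronal differentiation stable. Elavl3 gave 300.2 and 283 in Smad4cKO, against 549 and 413 in control, with log2 ratios of -0.87 and -0.55. Elavl4 gave 766 and 876 in Smad4cKO, against 1456 and 1080 in control, with -0.93 and -0.30. In both the groups did not overlap. Elavl2, which lies on the same chromosome as Elavl4 (chromosome 4, mm9) and is also expressed outside neurons in mouse, gave 2645 and 2960 in Smad4cKO, against 2798 and 2562 in control. Its ratios were -0.08 and 0.21, its groups overlapped, and its second probe also changed sign (-0.20 and 0.32). Rtn1, a reticulon of the neuronal endoplasmic reticulum, gave 1931 and 2123 in Smad4cKO, against 3672 and 2382 in control, so most of its difference came from array 1 (-0.93, against -0.17 on array 2). Uchl1, an abundant neuronal ubiquitin hydrolase, gave 2623 and 2631 in Smad4cKO, against 3172 and 2764 in control. Its groups did not overlap, yet its mean log2 ratio of -0.17 was close to its limma SE of 0.14.

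Of the transcription factors of autonomic neurons, Hand2 gave 868 and 801 in Smad4cKO, against 1546 and 1246 in control. Its groups did not overlap and its log2 ratio was -0.74 ± 0.14 (SE, n = 2, limma adjusted p = 0.233), or 1.66-fold lower. Hand2 is a helix-loop-helix factor that maintains noradrenergic character and is also expressed in embryonic mesenchyme of the mouse. Isl1, a LIM-homeodomain factor needed for the maturation of sympathetic and sensory neurons, gave 1364 and 1373 in Smad4cKO, against 2174 and 1936 in control, or -0.58 ± 0.14 (limma adjusted p = 0.366). Phox2a, the homeodomain factor that acts on the noradrenaline synthesis genes, gave 1523 and 1574 in Smad4cKO, against 2552 and 1852 in control. It was lower on both arrays without overlap (-0.74 and -0.23). Insm1, a zinc finger factor of endocrine and sympathetic precursors, gave 589 and 658 in Smad4cKO, against 1069 and 614 in control. Only the control RNA of array 1 stood apart for Insm1, and its ratios were -0.86 and 0.10.

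The 4 tested catecholamine genes divided. Dbh, which makes noradrenaline from dopamine, gave 1551 and 1448 in Smad4cKO, against 2586 and 1800.4 in control, with log2 ratios of -0.74 and -0.31. Slc18a2, the vesicular monoamine transporter, gave 760.4 and 807 in Smad4cKO, against 1149 and 1095 in control, with -0.60 and -0.44. Neither gene's groups overlapped, and limma's adjusted p was 0.589 for Dbh and 0.463 for Slc18a2. Th, whose product tyrosine hydroxylase limits the rate of the pathway, gave 2010 and 2282 in Smad4cKO, against 2028 and 2545 in control. The Th groups overlapped, and both arrays were close to equal at -0.01 and -0.16. Ddc, the next enzyme and one also found outside neurons, gave 4293 and 3986 in Smad4cKO, against 4482 and 4340 in control, and its mean log2 ratio of -0.09 lay within its SE of 0.13. A second Ddc probe gave -0.03. Gch1, which makes the cofactor of tyrosine hydroxylase, gave 1241 and 1138 in Smad4cKO, against 1380 and 1259 in control, or -0.15 and -0.14. Slc6a2, the noradrenaline reuptake transporter, was not well above background in any channel.

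The start regions of Th, Dbh, Prph and Phox2a were picked by role, and the 3 with a motif match are shown. The log2 ratios were near 0 for Th, -0.53 for Dbh and -0.86 for Prph, and a link with the motifs was not tested. The regions shown are from RefSeq (GRCm38.p6), 300 bases around each gene's start on its own strand. The capitals mark the match of a searched motif: the full cyclic AMP response element TGACGTCA in Th at chr7:142899946-142900245 (minus strand), its core TGACG, read on the opposite strand, in Dbh at chr2:27165257-27165556 (plus strand), and the TATA box letters TATAAA in Prph at chr15:99054924-99055223 (plus strand).
Th: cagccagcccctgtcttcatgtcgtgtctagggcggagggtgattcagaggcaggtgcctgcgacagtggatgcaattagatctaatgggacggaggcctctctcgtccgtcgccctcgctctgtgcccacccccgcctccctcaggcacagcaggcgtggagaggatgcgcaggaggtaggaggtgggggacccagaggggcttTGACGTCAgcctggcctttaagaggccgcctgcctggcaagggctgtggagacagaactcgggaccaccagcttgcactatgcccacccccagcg
Dbh: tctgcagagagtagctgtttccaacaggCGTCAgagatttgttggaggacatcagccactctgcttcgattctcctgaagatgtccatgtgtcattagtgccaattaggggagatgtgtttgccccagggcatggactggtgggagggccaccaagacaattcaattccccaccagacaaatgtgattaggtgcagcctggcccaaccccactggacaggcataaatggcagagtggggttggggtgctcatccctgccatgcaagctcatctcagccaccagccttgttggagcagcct
Prph: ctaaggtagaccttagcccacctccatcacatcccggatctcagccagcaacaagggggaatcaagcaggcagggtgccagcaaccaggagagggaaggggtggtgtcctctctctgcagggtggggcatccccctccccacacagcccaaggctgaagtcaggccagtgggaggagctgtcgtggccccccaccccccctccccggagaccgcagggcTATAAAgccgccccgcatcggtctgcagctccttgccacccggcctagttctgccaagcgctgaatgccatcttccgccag
The match begins 45 bases before the start in Th, 222 in Dbh and 31 in Prph. A start region was found for 31 of the 40 members among 27025 in the RefSeq table. On both strands, TGACGTCA was present in 5 of the 31 (Th, Slc18a2, Chgb, Scg2 and Cartpt), or 16.1%, against 1.88% of all 27025, and TGACG, which it contains, in 14, or 45.2%, against 21.0%. The 5 genes with the full element spanned the range of the members, with Chgb highest at 0.19 and Cartpt lowest at -1.15. TATAAA on the gene's strand was present in 5 of the 31 (16.1%, against 8.88% of all), the homeodomain core TAATTA on both strands in 2 (6.45%, against 5.31%) and CATCTG on both strands in 4 (12.9%, against 17.2%). The Phox2a region held 0 matches to these motifs. A match is a string of letters in a window and not a shown binding site.

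All 3 acetylcholine genes were lower in Smad4cKO on both arrays, but Slc5a7 was tested through its control channels only. Slc18a3, the vesicular acetylcholine transporter, gave 313 and 330.3 in Smad4cKO, against 567 and 449 in control, with log2 ratios of -0.86 and -0.44 and no overlap. Chat, choline acetyltransferase, was dimmer, with 174 and 179 in Smad4cKO and 255 and 195 in control. Its ratios were -0.55 and -0.13, and its mean of -0.34 became -0.59 with processed signals. Chat and Slc18a3 share a locus on chromosome 14, where their probes start 54206 bases apart (mm9). Slc5a7, the choline uptake transporter, was not well above background in Smad4cKO on either array and was above it in control on both, with 125 and 124 in Smad4cKO against 214 and 170 in control. The ratio of these values was 1.53-fold lower in Smad4cKO (limma adjusted p = 0.381). Because the Smad4cKO signal was not told from background, the size of this fold is uncertain, and it is open to dye bias. A second Slc5a7 probe was at background in every channel.

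Granins and peptides are packed together into dense-core vesicles. Cartpt, the precursor of the CART peptides, gave 1613 and 1463 in Smad4cKO, against 3430 and 3370 in control. Both control values lay well above each Smad4cKO value, and the log2 ratio of -1.15 ± 0.13 (SE, n = 2, limma adjusted p = 0.104), or 2.21-fold lower, was the lowest of all 37 members. Unlike most members, Cartpt gave close control values on both arrays. Scg2, secretogranin 2, was dim, with 178 and 173 in Smad4cKO and 244 and 218 in control, or -0.45 and -0.33, and its mean of -0.39 became -0.68 with processed signals. Chga, chromogranin A, gave 1759 and 1686 in Smad4cKO, against 1853 and 1819 in control, a difference of -0.09 that lay within its SE of 0.13. Chgb, chromogranin B, gave 4553 and 5162 in Smad4cKO, against 4285 and 4211 in control. Its groups did not overlap and its log2 ratio was 0.19 ± 0.14 (SE, n = 2, limma adjusted p = 1).

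Galanin, encoded by Gal, is a peptide that rises in injured neurons. Gal gave 1346 and 1245 in Smad4cKO, against 2354 and 1293 in control, so that only the control RNA of array 1 stood apart (-0.81, against -0.05 on array 2). Npy, the peptide stored beside noradrenaline in sympathetic neurons, gave 385 and 476 in Smad4cKO, against 466 and 484 in control, with overlapping groups and ratios of -0.28 and -0.02. The probes of Cartpt and Npy are shown because their 60 letters span 990 and 3763 bases of the genome, at chr13:100668967-100669956 and chr6:49773743-49777505 (mm9), so that each crosses at least 1 intron and reads spliced RNA.
Cartpt probe: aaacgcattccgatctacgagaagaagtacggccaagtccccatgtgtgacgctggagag
Npy probe: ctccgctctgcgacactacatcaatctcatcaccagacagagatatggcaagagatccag
These peptide probes thus gave, for Cartpt, the lowest ratio of the members and, for Npy, a ratio near 0, both from spliced RNA.

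Ntrk3, the receptor for neurotrophin 3, gave 2936 and 2966 in Smad4cKO, against 5744 and 5808 in control. The values within each group lay close together and the groups did not overlap, and the log2 ratio was -0.97 on each array (SE 0.13, n = 2, limma adjusted p = 0.129), or 1.96-fold lower. The other Ntrk3 probes (3 of them) were also lower, and the 4 probe means lay between -1.05 and -0.88. Ntrk3 is expressed in sympathetic and sensory neurons and, in mouse embryos, in some mesenchyme as well. Ngfr, the p75 receptor that binds all neurotrophins and also marks neural crest cells and glia, gave 2151 and 2550 in Smad4cKO, against 2844 and 2829 in control, or -0.40 and -0.15 without overlap. Chrnb4, a nicotinic receptor subunit of ganglia, was dim, with 260.3 and 241 in Smad4cKO and 320 and 211 in control, and changed sign between the arrays (-0.30 and 0.19). Chrna3, the subunit that pairs with it and whose probe starts 16755 bases away on chromosome 9 (mm9), was not well above background in any channel.

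The ratios were larger in size, whatever their sign, on array 1 than on array 2 for 29 of the 37 members, or 78.4%, against 54.3% of all tested genes. Split by group, the members' Smad4cKO values were nearly the same on the 2 arrays, with a median log2 of array 1 over array 2 of -0.01. Their control values were higher on array 1, with a median of 0.34. Over all tested genes these medians were -0.00049 and -0.02. The female control RNA thus gave higher values than the male control RNA for most of these genes, and those channels differ in sex, dye and RNA, which cannot be told apart. Across the 37 members the ratios of the 2 arrays correlated with Pearson's r = 0.71 and Spearman's rho = 0.72, where all tested genes gave r = -0.07. These are descriptions across genes that share the same 4 RNAs. Of all tested genes, 266 (1.25%) reached 1.5-fold on both arrays with opposite signs. With the same sign, 111 were lower and 104 higher in Smad4cKO. For 27 of the 37 members Smad4cKO lay below control without overlap, where the background was 14.1%, and for 1, Chgb, it lay above, where the background was 14.2%. The 27 include Slc5a7, which was tested through its control channels only.

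**Figure D4:**
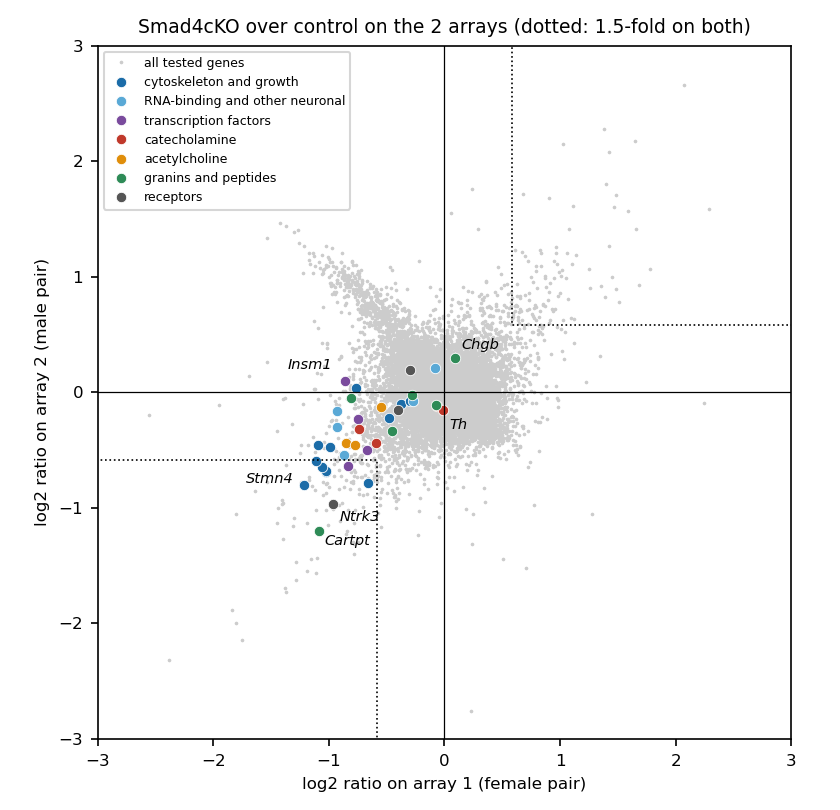
Log2 ratio of Smad4cKO over control on array 1 (x axis) and array 2 (y axis) for the 37 tested neuron genes, coloured by role, over all 21238 tested genes in grey. Dotted corners mark 1.5-fold on both arrays, and 9 of the neuron genes lie in the lower left one, while 32 lie below 0 on both axes.

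Neuron genes outside the members did not share the shift as a whole. Of 48 further genes of peripheral neurons and catecholamine metabolism, 42 were tested, with 16 lower and 8 higher on both arrays and a median log2 ratio of -0.08. By the 1.5-fold rule 0 were lower and 1 was higher, and limma called 0, with 4 lower and 3 higher at an unadjusted p under 0.05. Kif5a, a neuronal kinesin, gave -0.65 and -0.44, and Ret, the receptor of GDNF ligands in ganglia, the gut and the ureteric bud, gave -1.45 and -0.33. The gene past the rule was Syt1, the calcium sensor of synaptic vesicles, with 11681 and 7940 in Smad4cKO against 3400.2 and 3787 in control, or 1.42 ± 0.20 (log2, SE, n = 2, limma adjusted p = 0.139). Ebf1, a transcription factor of neurons and mesenchyme, gave 0.57 and 0.78.

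Lists of other peripheral cell types were set beside the members. Of 10 sensory neuron markers, 3 were tested, with a median of 0.03, and Pou4f1, Tlx3, Prdm12, Avil, Scn10a and Trpv1 were not bright enough, while Runx1 gave -0.05 and -0.08. Of 7 enteric neuron markers, 4 were tested, with a median of -0.82: Tlx2, a homeobox factor of enteric neurons, gave 1555 and 1451 in Smad4cKO against 3016 and 2391 in control and passed the 1.5-fold rule at -0.96 and -0.72. Ret is on that list as well, while the endothelin receptor gene Ednrb was higher at 0.52 and 0.38, and Nos1, Vip and Calb2 were not bright enough to test. All 10 glial and Schwann cell precursor markers were tested, with a median of -0.12 and 0 past the 1.5-fold rule in either direction. The glial factor Sox10 gave 700 and 661 in Smad4cKO, against 824 and 795 in control, or -0.24 and -0.27. The receptor gene Erbb3 gave 0.39 and 0.09, and S100b gave 0.69 and 0.58. Summed over the list, the glial markers gave 24280 and 21494 in Smad4cKO, against 19220 and 21796 in control, so the sums overlapped. The 7 adrenal and gonadal markers (4 tested, median -0.02) included Star at -0.15 and -0.32 and Cyp11a1 at 0.02 and 0.05.

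Among tissue markers, all 8 smooth muscle markers were higher in Smad4cKO on both arrays, 6 of them by the 1.5-fold rule, with a median of 1.44. Their summed intensity was 76848 and 98062 in Smad4cKO, against 49219 and 45786 in control, and the genes of largest ratio were Myh11 (2.08 and 2.65), Cnn1 (1.65 and 2.17), Actg2 (1.42 and 2.08) and Acta2 (1.03 and 2.14). Its part in the neuron values was not tested. The other lists had medians near 0 and 0 genes past the 1.5-fold rule: 0.06 for 7 ureteric mesenchyme markers, 0.07 for 9 urothelial, 0.09 for 6 endothelial, -0.11 for 5 erythroid and 0.18 for 5 macrophage markers. Their sums overlapped between the groups for urothelium (76499 and 71138 in Smad4cKO, 64082 and 76859 in control), erythroid cells (250755 and 367428 in Smad4cKO, 382940 and 211290 in control) and macrophages (15824 and 14873 in Smad4cKO, 12212 and 15782 in control). For endothelium they lay higher in Smad4cKO (60398 and 57020 in Smad4cKO, 52855 and 54405 in control), and for ureteric mesenchyme lower (105889 and 147100 in Smad4cKO, 152198 and 152787 in control). The mesenchyme sum rested on Bmp4: without it, a choice made after seeing the values, the sums were 65791 and 75847 in Smad4cKO, against 69598 and 56769 in control, and overlapped. Single genes of these lists included Bmp4 (-1.04 and -0.43), Tshz3 (-0.74 and -0.08), Gata6 (0.10 and 0.52), Sox9 (0.11 and 0.13), Cdh1 (0.24 and 0.28), Upk3a (-0.17 and -0.45), Krt5 (0.09 and 0.42) and Trp63 (0.12 and 0.08). They also included Cldn5 (0.44 and 0.08), Tek (0.12 and 0.23), Gata1 (-0.52 and -0.51), Alas2 (-0.06 and -0.17), Mrc1 (0.47 and 0.37) and Cd68 (0.24 and 0.12).

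**Figure D5:**
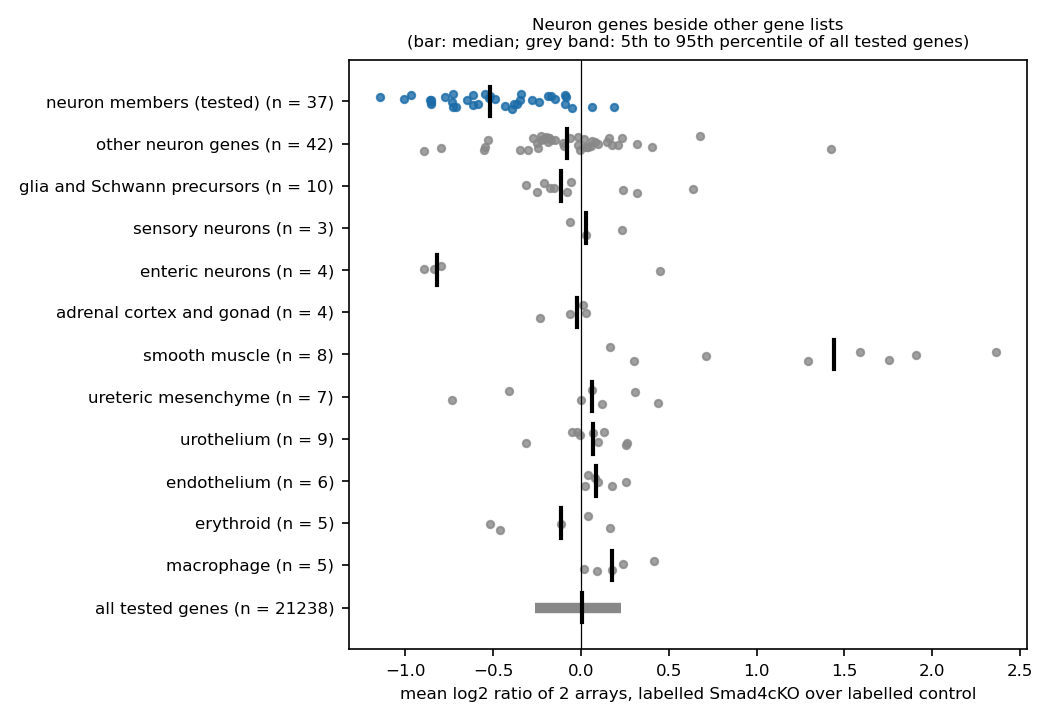
Mean log2 ratio of Smad4cKO over control for each tested neuron gene (top row, blue) and for the genes of other lists (grey points), with a bar at each list's median and, in the bottom row, a band over the 5th to 95th percentile of all 21238 tested genes. The neuron genes centre on -0.52, the 4 enteric neuron markers on -0.82 and the smooth muscle markers on 1.44, and most other lists centre near 0.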

How the data were processed

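RNA from E14.5 ureters (200 ng of total RNA per channel, amplified once) was hybridised to 2 arrays on 1 slide with 1 scan. Per the file headers, the deposited scanner files give each spot's intensity and flags, and the submitters' processing notes name Agilent Feature Extraction, version 10.7.3.1. The authors' deposited table holds a signed fold score between the channels, and the software behind it is not stated. Its log2 values lay within 0.001 of the processed signals' ratio, after a constant, for 41 of 45 tested member probes on each array.

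Mean signals were corrected with normexp (offset 50) and loess within arrays (limma 3.58.1, statmod 1.5.0, R 4.3.3, R package data.table, version 1.17.8). Control spots (1377 of 44397) and outlier spots (237 and 221) were left out, and spots were averaged per probe. A probe was tested where Smad4cKO on each array, or control on each array, was well above background, and each gene took its brightest tested probe. Printed intensities are channel values after loess and Aquantile, include the offset and carry the same ratio. Symbols of 26412 probes came from RefSeq (GRCm38.p6) and the rest from the files, whose coordinates are mm9. Log2 ratios were tested against 0 with lmFit and eBayes over 21238 genes (4.89 prior degrees of freedom). The SE is the moderated one. Only 2 arrays limit the precision. Tables and figures used Python 3.11.15, pandas 2.3.3 and matplotlib 3.10.9. The fit was tested on simulated data.

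Every member is named. Of each other list, counts and the median are given with up to 4 genes of the largest smaller absolute ratio and the same sign on both arrays, plus Gch1 and Sox10 in any case. Some genes that this rule names are not reported here. The members, lists and rules were chosen with earlier results of these data known.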

Additional observations from a re-analysis of the deposited data

How the results depend on the processing

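The members' median log2 ratio stayed negative under every alternative tried, and 0 members turned sign in the settings with both arrays. With 1 array some did. Without replicate 1, Stmn2 gave 0.04, Insm1 0.10 and Chrnb4 0.19, and without replicate 2, Elavl2 gave -0.08. The median lay between -0.59 with processed signals and -0.49 with no filter on dim probes, and was -0.30 without replicate 1 and -0.74 without replicate 2. Members lower on both arrays numbered 27 of 37 with median centring in place of loess and 31 or 32 in the other settings with both arrays. By the 1.5-fold rule, 6 (median centring) to 11 members were lower with both arrays, where 9 is the reported value. The background was 0.466% of all genes with median centring, against 0.523% for the reported value. In the settings that gave 11 members it was higher, from 0.711% with normexp offset 10 to 0.937% with processed signals. With 1 array the count was 9 without replicate 1 and 23 without replicate 2, where the backgrounds were 1.14% and 3.22% of all genes, a value with no test that asks less of each gene. Limma called 12 members lower with processed signals (160 of all genes), 4 with the authors' deposited values (77), 1 with normexp offset 10 (31) and 22 with an intensity trend and robust variance (407). It called 0 in the other settings, and 0 higher in any. The cause of these differences was not tested. Single-gene ratios that moved by over 1.5 times with processed signals were those of the dim genes Nefh, Chat, Scg2 and Chrnb4 (-0.10 for Chrnb4). Slc5a7, which was well above background in control only, moved by over 1.5 times as well. It was among the 12, 4 and 22 members that limma called in the settings above. No paired analysis was possible because each array already sets 1 Smad4cKO RNA against 1 control RNA, so the ratios are the pairs. The limits are 2 arrays, intensities that include an offset that draws dim genes' ratios towards 0, dye and sex changing together, and channels whose genotypes rest on the dye labels.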
